A study of Mus musculus with 12 samples.

Results

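A set of 9 genes that mark macrophages was followed through 12 RNA-seq libraries of bone marrow–derived macrophages (BMDMs). The question was whether macrophage identity held across culture settings. The 9 genes, out of 34327 in the table, were taken from a list of names drawn up with earlier results of these data known: Adgre1, Csf1r, Cd68, Spi1, Maf, Cd14, Ly6c2, Cd163 and Marco. BMDMs from wild-type mice, C57BL/6 by the strain label and C57BL/6J by the growth protocol, were grown in medium conditioned by L929 cells, and the adherent cells were cultured for 24 hours on tissue culture (TC) plates, in low-collagen gels (2 mg/ml) or in high-collagen gels (7 mg/ml) of rat tail collagen I. In each setting the cells were left untreated or given interleukin-4 (IL-4, 20 ng/ml), which makes 6 conditions with 2 libraries each. The labels do not say whether the 2 libraries of a condition came from separate animals, so the p-values measure the spread between these libraries, which may be technical. With 2 libraries against 2, an exact permutation test of a single gene cannot go below p = 0.333, so single genes were tested only in the fit across all genes.

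Macrophages depend on the growth factor CSF1, which signals through the receptor encoded by Csf1r, and on the transcription factor PU.1, encoded by Spi1, which opens many macrophage and monocyte enhancers. The genes of the set cover this core (Csf1r, Spi1), the surface and lysosomal proteins by which macrophages are recognised (Adgre1, which encodes the F4/80 antigen, and Cd68), and a transcription factor of mature resident macrophages (Maf). They also cover receptors for microbial or haemoglobin ligands (Cd14, the coreceptor for lipopolysaccharide, Cd163, the haemoglobin scavenger receptor, and Marco, a class A scavenger receptor), as well as Ly6c2, a surface marker of inflammatory monocytes. IL-4 is a type 2 cytokine that acts on macrophages through STAT6.

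The values are TPM, a relative transcript abundance corrected for transcript length and summing to one shared total per library, so levels of different genes can be set side by side. TPM keeps no read depth, and no counting interval can be given. A gene was called higher or lower at an adjusted p-value under 0.2 in limma on log2(TPM + 1) with Benjamini-Hochberg adjustment, and fold changes on that scale understate the change of low genes. In bulk RNA, fewer cells of a type and less RNA per cell cannot be told apart.

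All 9 members are protein-coding genes. In GRCm38, by the GENCODE annotation, Adgre1 lies at chr17:57358691-57483527, Cd68 at chr11:69664213-69666153, Spi1 at chr2:91082390-91115756, Maf at chr8:115682942-115707794, Ly6c2 at chr15:75108158-75111970, Cd163 at chr6:124304656-124330527 and Marco at chr1:120474538-120505024. Short promoter windows of the members show what sequence lies at their start sites. RefSeq promoter windows of 300 bases (250 before the start site and 50 after it, GRCm38.p6) were found for 4 of the 9 members. The 3 shown belong to Cd68, called higher with IL-4 in all 3 settings, Marco, called lower in all 3, and Cd163, called lower in both gel types and not called on plates. Capitals mark GAGGAA, a core of PU.1 sites, on either strand (TTCCTC on the other strand).
Marco, chr1:120504975-120505274, minus strand: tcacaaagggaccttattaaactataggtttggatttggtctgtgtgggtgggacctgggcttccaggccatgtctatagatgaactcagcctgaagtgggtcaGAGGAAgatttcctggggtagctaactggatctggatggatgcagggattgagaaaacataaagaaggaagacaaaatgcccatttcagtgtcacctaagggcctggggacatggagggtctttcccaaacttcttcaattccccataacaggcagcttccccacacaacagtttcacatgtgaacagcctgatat
Cd163, chr6:124304401-124304700, plus strand: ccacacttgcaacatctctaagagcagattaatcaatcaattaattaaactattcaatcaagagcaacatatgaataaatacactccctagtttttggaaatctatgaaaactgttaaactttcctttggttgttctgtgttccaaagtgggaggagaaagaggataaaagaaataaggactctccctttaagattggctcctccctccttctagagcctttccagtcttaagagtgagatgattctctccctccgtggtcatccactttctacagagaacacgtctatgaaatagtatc
Cd68, chr11:69666121-69666420, minus strand: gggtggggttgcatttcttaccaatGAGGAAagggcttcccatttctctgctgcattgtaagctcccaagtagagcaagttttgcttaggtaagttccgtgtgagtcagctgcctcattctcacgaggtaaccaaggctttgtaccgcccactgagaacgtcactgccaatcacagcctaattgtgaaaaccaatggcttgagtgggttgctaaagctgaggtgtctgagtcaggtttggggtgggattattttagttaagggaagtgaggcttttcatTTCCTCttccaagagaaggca
GAGGAA occurred once in the Marco window, at position −146 from the start site, and at 2 places in the Cd68 window, and it was not in the Cd163 window. Of 32851 promoter windows of this length, 28.3% hold it on either strand, so its presence is common. The Cd68 window also held the C/EBP letters TTGCNNAA (in 10.8% of all windows) and the AP-1 letters TGANTCA at 2 places (in 7.81%). None of the 3 windows held the STAT6 letters TTCNNNNGAA (in 6.95% of all windows) or the MAF half-site TGCTGA (in 19.5%). Both strands were read, and a match describes letters only. The other members are Adgre1, Csf1r, Spi1, Maf and Cd14, with no window shown, and Ly6c2, whose window held GAGGAA at 2 places.

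The members fell into a highly expressed and a scarce group. Cd68 was the most abundant at a mean of 2187 TPM over the 12 libraries, followed by Csf1r (1204 TPM), Adgre1 (605 TPM), Spi1 (347 TPM), Cd14 (311 TPM) and Maf (141 TPM). The other 3, Marco (6.75 TPM), Cd163 (2.30 TPM) and Ly6c2 (0.898 TPM), had means under 10 TPM. 7 of the 9 members were at 1 TPM or more in every library, and the 2 that were not are Cd163 and Ly6c2. Of the 8 members that averaged 1 TPM or more, Cd163 entered the fit over all libraries only through its gel libraries. All 8 differed among the 6 conditions, where 89.8% of all 11865 genes tested did as well. Their condition means spanned from 0.34 on the log2 scale for Spi1, a span smaller than that of all but 5.76% of genes, to 3.17 for Cd14, larger than that of 97.7% of genes. The median span of all genes was 0.92. The plot of levels by library shows these ranges side by side.

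**Figure D1:**
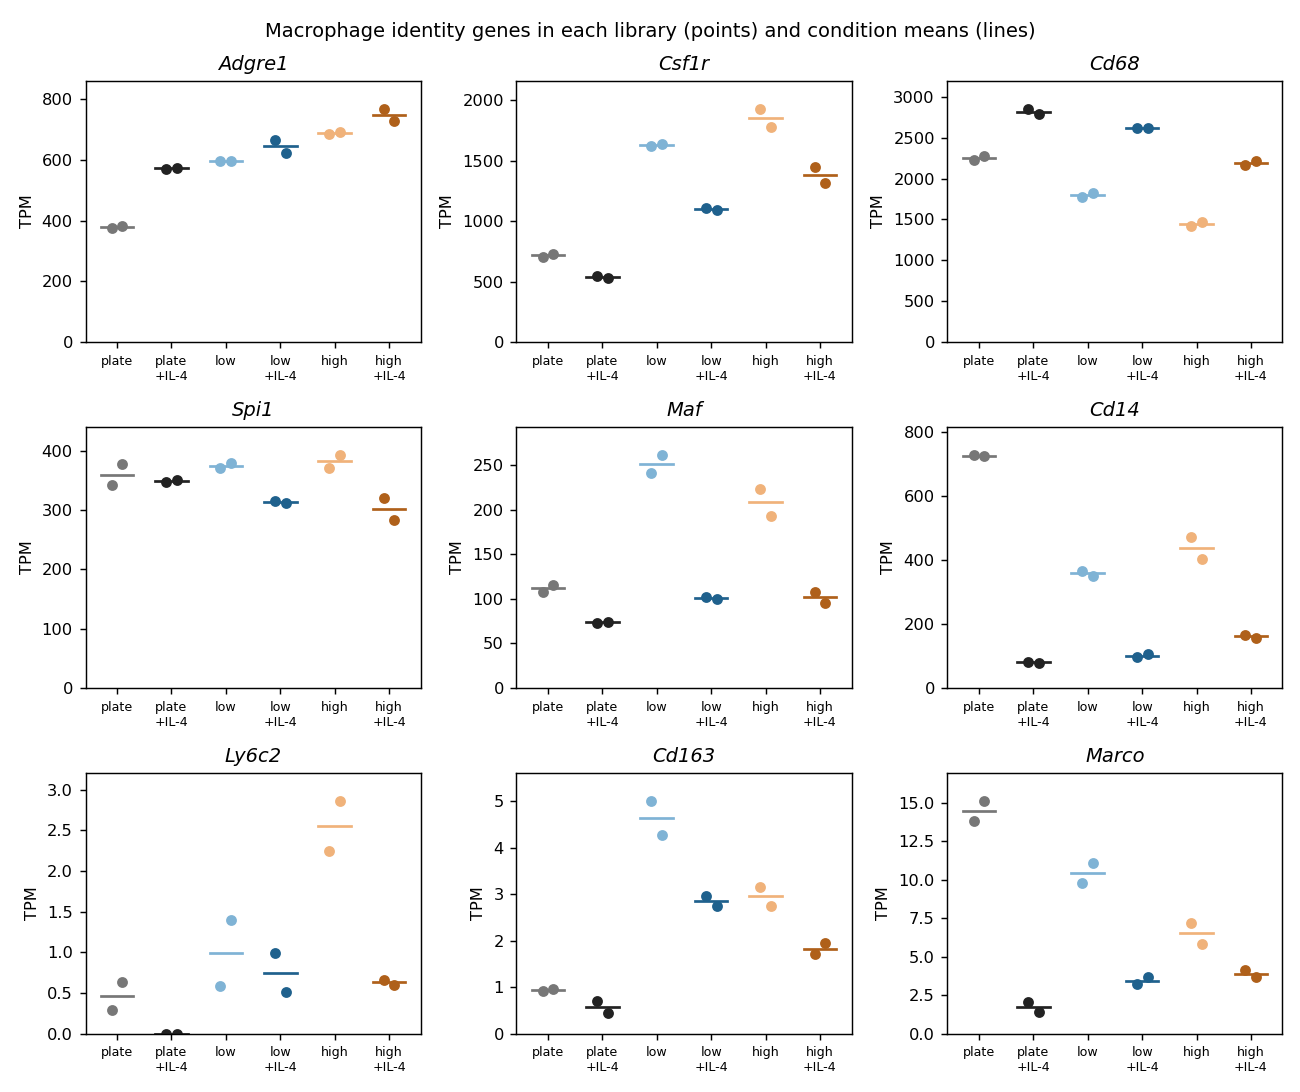
TPM of the 9 members in each of the 12 libraries (points) and the mean of each condition (lines), in separate linear panels that start at 0 and have their own scale. Spi1 stays between 284 and 393 TPM in every library, while Cd14 runs from 77.5 to 729 TPM and Ly6c2 is at 0 in both IL-4 libraries on TC plates.

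Csf1r was higher in gels than on plates, with or without IL-4, and fell with IL-4 in every setting. On TC plates its level was 704 and 730 TPM untreated and 549 and 529 TPM with IL-4. In low-collagen gels it was 1624 and 1642 TPM untreated and 1114 and 1090 TPM with IL-4. In high-collagen gels it was 1929 and 1779 TPM untreated and 1445 and 1315 TPM with IL-4. Every gel library was above every plate library, and within each setting the untreated libraries were above the IL-4 libraries with no overlap. Csf1r was 2.43-fold higher in gels than on TC plates without IL-4 (log2 difference 1.28, SE 0.05, limma with Benjamini-Hochberg adjusted p = 3.21e-08) and 2.30-fold higher with IL-4 (1.19, SE 0.05). IL-4 lowered it in all 3 settings, by log2 0.41 on TC plates and by 0.57 and 0.43 in low- and high-collagen gels. That change did not differ detectably between gels and plates (difference −0.09, 95% confidence interval −0.24 to 0.07). Csf1r lies on mouse chromosome 18, where 15.1% of its exonic bases overlap exons of Hmgxb3 on the opposite strand. Hmgxb3 was at 4.53 to 12.7 TPM, and the kallisto options named in the study's methods include none for strand.

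Adgre1 encodes the F4/80 adhesion receptor of mouse macrophages. Its libraries were at 374 and 382 TPM on untreated TC plates and at 571 and 573 TPM there with IL-4. Untreated and IL-4 libraries read 597, 597, 666 and 623 TPM in low-collagen gels and 685, 692, 767 and 729 TPM in high-collagen gels. The 6 conditions stood in a strict order without overlap between neighbours, from untreated TC plates at the bottom to high-collagen gels with IL-4 at the top. IL-4 raised Adgre1 1.51-fold on TC plates (log2 0.59, SE 0.05, limma with Benjamini-Hochberg adjusted p = 1.49e-05). In gels the rise was 1.08-fold in low and 1.09-fold in high collagen (log2 0.11 and 0.12, limma with Benjamini-Hochberg adjusted p = 0.163 and 0.193, with 95% intervals that reach just below 0). Relative to the median of all genes these gel rises were 0.30 and 0.22. The gain with IL-4 was smaller in gels than on plates (difference −0.48, SE 0.06). The relative Adgre5, another adhesion receptor, was 12.1 TPM on untreated plates and 104 TPM in untreated low-collagen gels. Both gel calls for Adgre1 were lost when some libraries were left out. In low-collagen gels these were untreated low-collagen library 1 or 2 (0.11 each), IL-4 low-collagen library 1 (0.06) and untreated high-collagen library 1 or 2 (0.11 each). In high-collagen gels they were IL-4 low-collagen library 1 or 2 (0.12 each), untreated high-collagen library 1 (0.11) or 2 (0.13) and IL-4 high-collagen library 1 (0.08) or 2 (0.16).

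Cd68, a lysosomal glycoprotein used as a general macrophage marker, rose with IL-4, and without IL-4 it was lower in gels than on plates. It was at 2232 and 2282 TPM on untreated TC plates, at 1771 and 1826 TPM in untreated low-collagen gels and at 1418 and 1463 TPM in untreated high-collagen gels. With IL-4 it was at 2851 and 2786 TPM on plates, 2615 and 2622 TPM in low-collagen gels and 2165 and 2214 TPM in high-collagen gels. IL-4 raised it in all 3 settings, by log2 0.32 on plates, 0.54 in low and 0.60 in high collagen, and the rise was larger in gels than on plates (difference 0.25, SE 0.05, limma with Benjamini-Hochberg adjusted p = 0.00984). Without IL-4 it was lower in gels than on plates by log2 0.49, and with IL-4 by 0.24 before rescaling but higher by 0.05 after median-ratio rescaling. The lysosomal membrane protein Lamp1 was higher in gels without IL-4 (log2 0.58), at a mean of 1487 TPM on untreated plates and 2202 TPM in untreated low-collagen gels.

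Spi1, the gene of PU.1, was the member whose level moved least. Its libraries read 343 and 377 TPM on untreated TC plates and 348 and 350 TPM there with IL-4, 370 and 379 TPM in untreated low-collagen gels, and 371 and 393 TPM in untreated high-collagen gels. With IL-4 they read 315 and 312 TPM in low-collagen gels and 320 and 284 TPM in high-collagen gels. IL-4 lowered Spi1 in low-collagen gels (log2 −0.26, SE 0.07) and in high-collagen gels (−0.34, SE 0.07). Relative to the median of all genes these changes were −0.06 and −0.24, and the call in low-collagen gels was lost after median-ratio rescaling (−0.05). On plates the change was −0.04, with a 95% interval from −0.19 to 0.11, and it turned to 0.02 after rescaling. Gels and plates did not differ without IL-4 by the test (0.07, interval −0.06 to 0.20), though the difference passed at 0.26 after rescaling and at 0.14 without untreated TC plate library 2. Spib, a relative of PU.1, was below 0.437 TPM in every library, and Spic reached at most 4.30 TPM.

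Maf was higher in gels than on plates and fell with IL-4 most strongly in gels. It was at 108 and 116 TPM on untreated TC plates, 241 and 262 TPM in untreated low-collagen gels and 223 and 193 TPM in untreated high-collagen gels. With IL-4 it was at 73.0 and 73.9 TPM on plates, 102 and 100 TPM in low-collagen gels and 108 and 95.7 TPM in high-collagen gels. The untreated gel libraries stood above all others. IL-4 lowered Maf by log2 0.60 on plates, 1.31 in low collagen and 1.02 in high collagen, and the fall was larger in gels (difference −0.57, SE 0.10, limma with Benjamini-Hochberg adjusted p = 0.00765). Of the exonic bases of Maf, 5.34% overlap the antisense gene Gm15655, for which no level was found under that name.

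Cd14 and Marco had the widest spans of condition means among the members. Cd14 was at 729 and 724 TPM on untreated TC plates and at 81.9 and 77.5 TPM there with IL-4. In low-collagen gels it was at 367 and 349 TPM untreated and 97.4 and 105 TPM with IL-4, and in high-collagen gels at 472 and 405 TPM untreated and 166 and 156 TPM with IL-4. No groups overlapped. IL-4 lowered Cd14 9.11-fold on plates (log2 −3.17, SE 0.08, limma with Benjamini-Hochberg adjusted p = 7.59e-09), 3.54-fold in low-collagen gels (−1.81) and 2.72-fold in high-collagen gels (−1.44). The loss was smaller in gels than on plates by log2 1.55 (SE 0.09, limma with Benjamini-Hochberg adjusted p = 2.16e-05). Cd14 in gels was below plates without IL-4 (log2 −0.88) and above plates with IL-4 (0.67).

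Marco, at far lower levels, also fell with IL-4 most on plates. It was at 13.8 and 15.1 TPM on untreated TC plates, 9.76 and 11.1 TPM in untreated low-collagen gels and 7.19 and 5.85 TPM in untreated high-collagen gels. With IL-4 it was at 2.07 and 1.40 TPM on plates, 3.20 and 3.68 TPM in low-collagen gels and 4.12 and 3.68 TPM in high-collagen gels. IL-4 lowered it by log2 2.51 on plates, 1.36 in low collagen and 0.61 in high collagen (limma with Benjamini-Hochberg adjusted p = 4.18e-06, 0.000662 and 0.0376). The loss was smaller in gels by log2 1.52 (SE 0.20). Gels were below plates without IL-4 (−0.74) and above with IL-4 (0.78). Over the 12 libraries the log2 levels of Cd14 and Marco had a Pearson r of 0.94, as a description of points that share conditions. Msr1, another class A scavenger receptor, was at a mean of 421 TPM on untreated plates and 77.9 TPM in untreated low-collagen gels.

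Cd163 was scarce throughout and higher in gels. Its libraries read 0.927 and 0.969 TPM on untreated TC plates and 0.697 and 0.439 TPM there with IL-4. In low-collagen gels they read 5.01 and 4.27 TPM untreated and 2.96 and 2.75 TPM with IL-4, and in high-collagen gels 3.15 and 2.75 TPM untreated and 1.71 and 1.95 TPM with IL-4. All gel libraries stood above all plate libraries. Cd163 was higher in gels than on plates by log2 1.27 (SE 0.16) without IL-4 and by 1.08 with IL-4. Both differences describe levels only, because Cd163 entered the fit over all libraries only through its gel libraries. All plate libraries of Cd163 were below 1 TPM. IL-4 lowered it in low-collagen gels (−0.55, limma with Benjamini-Hochberg adjusted p = 0.0508) and high-collagen gels (−0.48, adjusted p = 0.112). On plates the value was −0.32 (limma with Benjamini-Hochberg adjusted p = 0.256). In TPM the means fell 1.67-fold on plates and 1.62- and 1.61-fold in low- and high-collagen gels. The log2(TPM + 1) scale understates a change at levels below 1 TPM. The high-collagen call was lost without untreated high-collagen library 1 (−0.41) or IL-4 high-collagen library 1 (−0.42). Correcting for GC content and transcript length, an alternative chosen after seeing the data, ended both gel calls (−0.25 and −0.32).

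Ly6c2, the monocyte marker, stayed near the bottom of the table. It was listed at 0.297 and 0.632 TPM on untreated TC plates and at 0 in both IL-4 libraries there. Untreated gels gave 0.588 and 1.39 TPM in low collagen and 2.24 and 2.86 TPM in high collagen. IL-4 gels gave 0.988 and 0.510 TPM in low collagen and 0.659 and 0.600 TPM in high collagen. The untreated high-collagen libraries were the highest, and below them neighbouring conditions overlapped down to the IL-4 plates at 0. Its mean of 0.898 TPM kept it out of the fit over all libraries. It entered the gel fit, at a gel mean of 1.23 TPM, only through the untreated high-collagen libraries (mean 2.55 TPM). The other gel conditions had means of 0.990, 0.749 and 0.630 TPM. In that fit the IL-4 change was log2 −1.12 (SE 0.29) in high collagen, which describes the levels only. In low collagen no change was detected (−0.17, interval −0.85 to 0.51). Of the 31-base transcript words of Ly6c2, 23.8% are shared with other genes, 21.4% with Ly6c1, which was at 0 in 11 of 12 libraries.

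Counted together, IL-4 raised 2 and lowered 4 of the 8 members tested on TC plates, where 14.7% of all genes were called higher and 24% lower. It raised 2 and lowered 6 of 9 in low-collagen gels (13.2% and 40.4% of all genes) and raised 2 and lowered 7 of 9 in high-collagen gels (11.5% and 22.8%). The 7 include Ly6c2, which entered the gel fit only through its untreated high-collagen libraries. Adgre1 and Cd68 rose in all 3 settings, and Csf1r, Maf, Cd14 and Marco fell in all 3. The median log2 change of the members was −0.36, −0.55 and −0.48 in the 3 settings, and that of all genes −0.06, −0.19 and −0.10. After median-ratio rescaling, which put the median of all genes near 0, the calls over all genes were 2236 higher and 2399 lower on plates (1745 and 2853 before), 2767 and 2529 in low collagen (1567 and 4784) and 2078 and 1703 in high collagen (1366 and 2698). Among markers of other cells, the 5 osteoclast markers summed to 4.75 to 9.11 TPM untreated and, with IL-4, to at most 18.6 TPM on plates and 25.1 to 32.1 TPM in gels, with Acp5 and Ctsk the highest and Calcr at 0 in every library. The 5 endothelial markers summed to 2.23 to 6.15 TPM untreated and 9.20 to 14.1 TPM with IL-4, with Pecam1 and Kdr above 5 TPM in at least 1 library. The 2 went in opposite directions. Pecam1 was higher with IL-4 in all 3 settings (0.383 to 6.86 TPM on plates). The mean of Kdr was lower in all 3, mainly on plates (5.11 to 2.64 TPM). In gels Kdr was low throughout, at 0.867 to 0.728 TPM in low collagen and 1.01 to 0.865 TPM in high collagen. The part of these markers of other cells in the members' IL-4 changes was not tested. The plot of IL-4 effects shows that the 3 settings differ most for Cd14 and Marco.

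**Figure D2:**
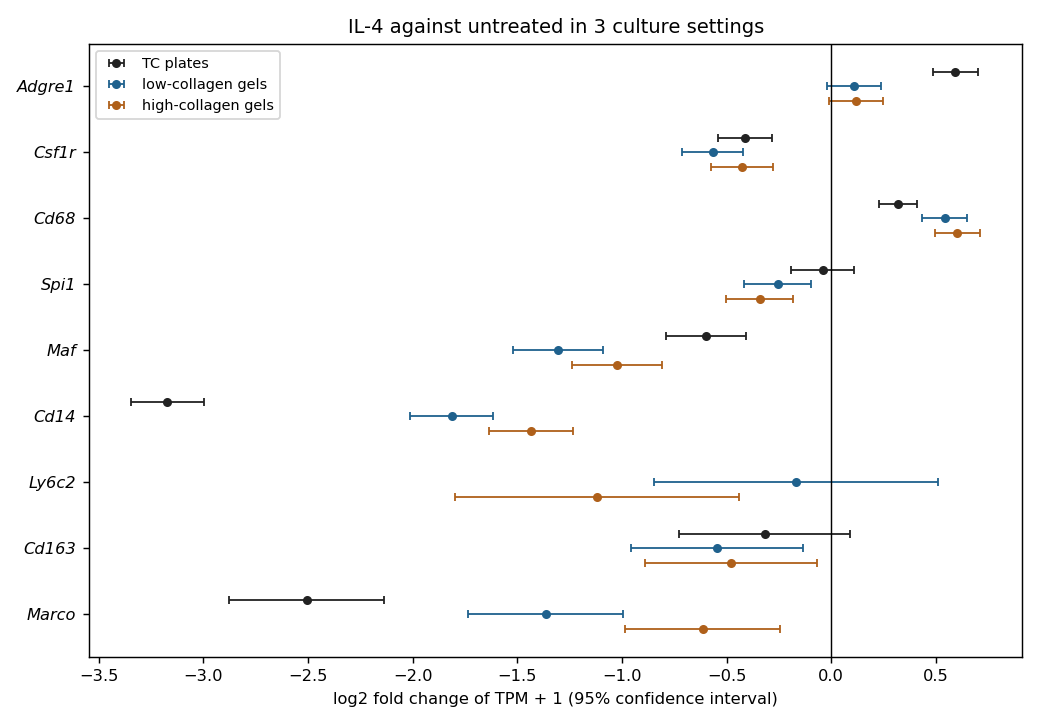
Log2 fold change of TPM + 1 with IL-4 against untreated cells (points) with 95% confidence intervals (bars), for the members tested on TC plates, in low-collagen gels and in high-collagen gels. Cd14 lies at −3.17, −1.81 and −1.44 and Marco at −2.51, −1.36 and −0.61, with the plate value farthest from 0 in each.

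The response to IL-4 differed between gels and plates for 6 of the 8 members tested, at 27.1% of all genes. It was less negative in gels for Cd14 (1.55) and Marco (1.52) and more positive for Cd68 (0.25), and lower for Maf (−0.57), Adgre1 (−0.48) and Spi1 (−0.26). For Csf1r and Cd163 no difference was called. Over all genes, calls were 1278 higher and 1940 lower before rescaling and 1819 and 1205 after it. The Spi1 call was lost after median-ratio rescaling (−0.16) and without untreated TC plate library 1 (−0.19). Between high and low collagen, limma called a different IL-4 response in 0 of 9 members, against 0.363% of all genes, and 2 members had an unadjusted p under 0.05 (Marco, difference 0.75 with an interval from 0.23 to 1.27, and Cd14, 0.38 with an interval from 0.10 to 0.66). Over all genes these calls were 23 higher and 20 lower before rescaling and 15 and 24 after it.

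Gels and TC plates differed in 7 of 8 members without IL-4, with Csf1r, Cd163, Maf and Adgre1 higher and Marco, Cd14 and Cd68 lower. Cd163 entered this fit only through its gel libraries, which holds for the counts without and with IL-4. Of all genes, 29.7% were called higher and 46.7% lower. With IL-4 all 8 were called, 6 higher and 2 lower (25.7% and 51.8% of all genes), and the 2 lower ones, Cd68 and Spi1, turned to 0.05 and 0.10 after median-ratio rescaling. TPM of one library are tied to the total, and the median of all genes was −0.15 without IL-4 and −0.24 with IL-4. Rescaling moved these medians by 0.16 and 0.26, and those of the IL-4 change by 0.18 in low and 0.10 in high collagen. Relative to the median of all genes, Csf1r was higher in gels by 1.42 and 1.43, Cd163 by 1.42 and 1.32, Maf by 1.17 and 0.70, and Adgre1 by 0.91 and 0.52. After rescaling the calls over all genes were 4593 higher and 4450 lower without IL-4 (3524 and 5537 before) and 4580 and 4423 with IL-4 (3054 and 6143). The 10 neutrophil markers summed to 6.32 to 11.7 TPM on plates and 19.8 to 38.3 TPM in gels, with Ly6g at 0 in every library and S100a8, S100a9 and Prtn3 above 5 TPM in at least 1 library. Not every marker followed the sum. With IL-4, S100a8 averaged 4.48 TPM on plates and 3.81 TPM in high-collagen gels, and S100a9 1.61 and 9.25 TPM. The part of the neutrophil markers in the members' differences was not tested. Gel cells were also lysed together with the gel, so the culture setting and the way RNA was harvested cannot be told apart.

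Between high and low collagen without IL-4, 4 of 9 members were called (3.23% of all genes were higher and 4.79% lower), with Adgre1 (0.21) and Cd14 (0.29) higher and Cd68 (−0.32) and Marco (−0.61) lower in high collagen. With IL-4, 5 were called (14.1% and 6.99% of all genes), with Adgre1 (0.21), Csf1r (0.32) and Cd14 (0.67) higher and Cd68 (−0.26) and Cd163 (−0.45) lower. Cd68 and Cd14 with IL-4 had adjusted p-values of 0.0285 and 0.0121 in limma after Benjamini-Hochberg adjustment. With IL-4 the calls over all genes were 1672 higher and 828 lower before rescaling and 1252 and 1319 after it, where the Adgre1 call was lost (0.14). The count without IL-4 was 1 when untreated low-collagen library 1 or 2 or untreated high-collagen library 1 or 2 was left out, where all genes called went from 951 to 651, 249, 190 and 138 in the same order, and it was 7 with all 12 libraries in the fit, where 1361 genes were called. Without these libraries Adgre1 was at 0.20 to 0.21 and Marco at −0.74 to −0.48, and Cd14 lost its call without any 1 of the 8 gel libraries (0.18 to 0.40). The count with IL-4 was 3 without IL-4 low-collagen library 2 or IL-4 high-collagen library 1, where all genes called went from 2500 to 721 and 1276 and Adgre1 was at 0.17 and 0.18. Cd163 lost its call without any 1 of the IL-4 gel libraries or the untreated high-collagen libraries (−0.51 to −0.39). The plot of setting comparisons shows both pairs of contrasts.

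**Figure D3:**
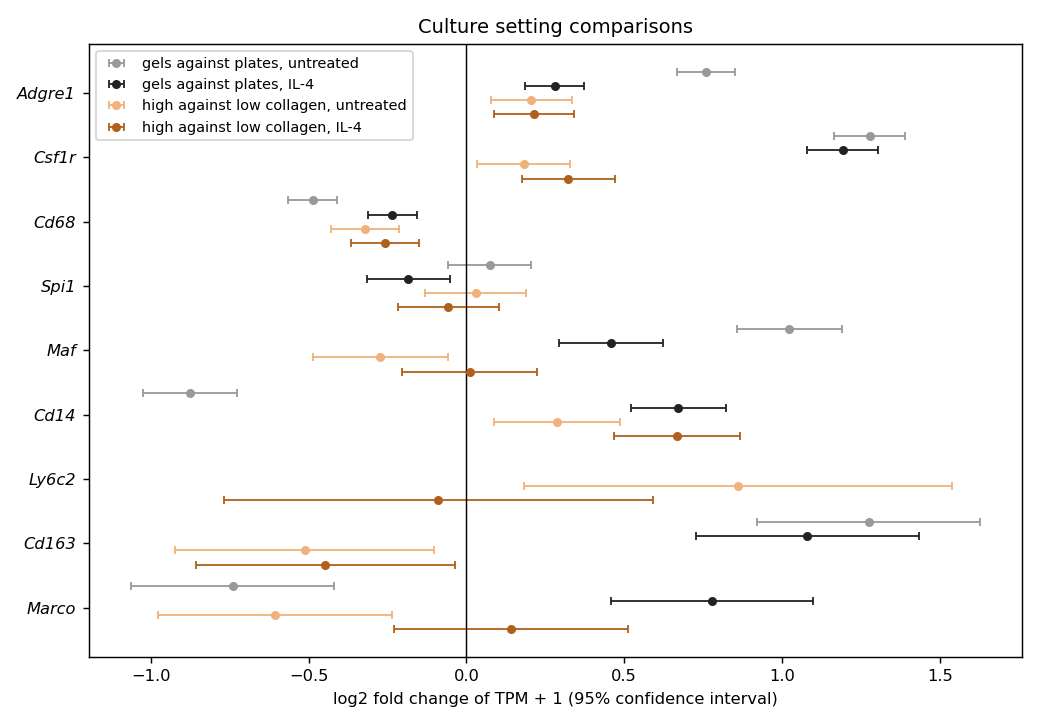
Log2 fold change of TPM + 1 for the members (points) with 95% confidence intervals (bars), for gels against TC plates and high against low collagen, each untreated and with IL-4. Cd14 and Marco lie below 0 for untreated gels against plates (−0.88 and −0.74) and above 0 with IL-4 (0.67 and 0.78), and Ly6c2 has no value against plates because it was not tested there.

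Ratios of members within a library do not depend on how the library was scaled. Csf1r over Cd68 was 0.318 ± 0.003 (SD, n = 2) on untreated plates, 0.908 ± 0.013 in untreated low-collagen gels and 1.29 ± 0.10 in untreated high-collagen gels. With IL-4 it was 0.191 ± 0.002, 0.421 ± 0.007 and 0.631 ± 0.052 in the same order. The ratio of Cd14 to Cd68 was 0.322 ± 0.006 on untreated plates and 0.0283 ± 0.0006 with IL-4 there.

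**Figure D4:**
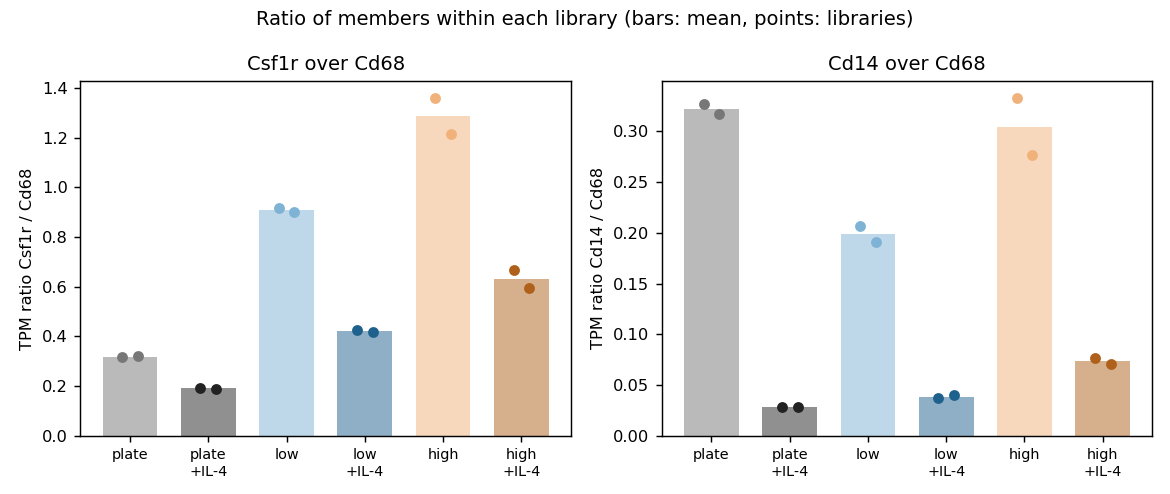
TPM of Csf1r over Cd68 (left) and of Cd14 over Cd68 (right) in each library (points) and the mean of each condition (bars from 0). Csf1r over Cd68 rises from 0.318 on untreated plates to 1.29 in untreated high-collagen gels and is lower with IL-4 in each setting.

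Genes around the members were counted from lists chosen with earlier results known. Of 22 other macrophage genes tested, 13 were higher and 5 lower in gels than on plates without IL-4 (median 0.41, all genes −0.15), and 19 were higher and 3 lower with IL-4 (median 0.58, all genes −0.24). Over all genes, 29.7% were called higher and 46.7% lower without IL-4, and 25.7% and 51.8% with IL-4. Lgals3, which encodes galectin-3, was lower in gels in both cases, at a mean of 3395 TPM in untreated gels and 5696 TPM on untreated plates. Ctss, the gene of cathepsin S, was the largest rise of the list in gels against plates with IL-4, at 4265 and 1811 TPM. With IL-4, 13 of the 22 fell and 4 rose on plates (median −0.35), and 10 fell and 5 rose in low-collagen gels (median −0.06). The shares of all genes were 24% lower and 14.7% higher on plates, and 40.4% and 13.2% in low-collagen gels. The largest fall of the list with IL-4 in each setting was Cx3cr1, the fractalkine receptor, from 73.8 to 1.60 TPM on plates. Of 21 lineage regulators tested, 12 rose and 5 fell with IL-4 on plates (14.7% and 24% of all genes). Egr2 went from 0.892 to 41.2 TPM there.

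Of 11 growth factor receptor and signalling genes tested beside Csf1r, 7 were called higher with IL-4 on plates and 9 in each gel type. The largest rise was that of the cytokine signalling inhibitor Socs1. Its untreated means were 0.993 TPM on plates, 0.842 TPM in low and 0.758 TPM in high collagen. With IL-4 they were 53.2, 179 and 112 TPM. Socs1 entered the fits only through its IL-4 libraries, so its rise describes levels only. The share of all genes called higher was 14.7% on plates, 13.2% in low-collagen gels and 11.5% in high-collagen gels. Csf3r, the receptor for the granulocyte factor, was at 74.3 TPM in untreated gels and 14.2 TPM on untreated plates, and Csf2ra, a receptor chain for the granulocyte-macrophage factor, was at 50.5 and 150 TPM. In that comparison 4 of the 11 were higher and 3 lower in gels (29.7% and 46.7% of all genes). Around Cd14, 4 of the 9 genes of its receptor group fell and 1 rose with IL-4 on plates (24% and 14.7% of all genes). Tlr2 went from 56.6 to 7.98 TPM, while Tlr4, the signalling partner of Cd14, went from 59.0 to 78.0 TPM. Of 12 scavenger receptors tested, 7 fell and 4 rose with IL-4 on plates (24% and 14.7% of all genes). Among them the mannose receptor Mrc1 went from 347 to 1365 TPM and Cxcl16 from 156 to 30.6 TPM. Of 7 monocyte genes tested beside Ly6c2, 4 were higher and 2 lower in untreated gels than on plates (29.7% and 46.7% of all genes). F13a1, a monocyte transglutaminase, was at 718 TPM in untreated gels and 62.2 TPM on untreated plates, and Spn, the gene of CD43, was at 10.4 and 50.05 TPM.

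For the members in the fit over all libraries whose condition means span at least 1 on the log2 scale, which leaves out Ly6c2, the genes with the most similar pattern over the 12 libraries were found among 9627 genes that averaged 5 TPM or more. For Csf1r these were Peli2, Itm2b and Bmf (Pearson r 0.997, 0.993 and 0.993), and 683 genes had r over 0.9. For Maf they were Arhgap19, Mex3b and Abhd12 (0.989, 0.985 and 0.984), and for Cd14 they included Marcksl1 and Slc44a1 (0.982 and 0.977). For Cd163 they were Fmo5, Jak3 and Smim19 (0.982, 0.973 and 0.970), and for Marco AC153954.1, Chd9 and Traf3ip3 (0.965, 0.964 and 0.949). The libraries share conditions, so these values describe likeness of pattern only.

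The highest sums of the neutrophil, osteoclast and endothelial markers (38.3, 32.1 and 14.1 TPM) were above the mean levels of Marco, Cd163 and Ly6c2. Single markers reached 21.1 TPM for Acp5 and 17.7 TPM for S100a9, above every Marco library. The summed TPM of the dendritic cell (7 genes), mast cell or basophil (5), lymphocyte (6), erythroid (6) and fibroblast (6) markers stayed at or below 2.57 TPM in every library, and all of these genes were below 1 TPM. The 5 eosinophil markers summed to 0.458 to 3.37 TPM.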

How the data were processed

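BMDMs of 6 conditions gave 12 libraries (TruSeq stranded mRNA, paired ends). The authors estimated transcript abundances with kallisto 0.46.1 on the Ensembl GRCm38 transcriptome and deposited 1 table of TPM values per gene. Repeated lines (129) were collapsed, leaving 34327 genes with totals of 999658 to 999723 TPM per library. TPM keep no depth, so no count test was run.

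Conditions came from the sample labels. Values were taken as log2(TPM + 1) for genes with a mean of 1 TPM or more. limma 3.58.1 in R 4.3.3 fitted 1 mean per condition and a mean-variance trend, and p-values were adjusted by Benjamini-Hochberg. Comparisons within gels used the 8 gel libraries (11852 genes) and the others all 12 (11865 genes). The fit was tested on simulated data. "Gels" is the mean of low and high collagen. Figures used python 3.11.15 and matplotlib 3.10.9.

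The members, gene lists and tests were chosen with earlier results of these data known. Named beside the members are their relatives, and per list the largest called rise and fall with a mean of 5 TPM or more and no overlap between groups. Markers of other cells were named where they reached 5 TPM in a library, as were the 3 genes most similar in pattern to a member. Some genes that these rules name are not reported here. Ctsk, Acp5, Calcr and Ly6g fall under the marker lists. Alternatives were another pseudocount (0.1), no filter, a mean of 5 TPM, no trend, median-ratio rescaling, a threshold of 0.05, all 12 libraries in the fit, a replicate block and each library left out. Correcting each library for GC content and for transcript length was added after seeing the data. Gene positions are from the GENCODE annotation of GRCm38.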

Additional observations from a re-analysis of the deposited data

Results flagged for a closer look

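For 6 of the 8 members tested, and for 27.1% of all genes, the response to IL-4 differed between gels and TC plates by the test of that difference in limma with Benjamini-Hochberg adjustment. On the log2 scale, gels minus plates, it was 1.55 for Cd14, 1.52 for Marco, 0.25 for Cd68, −0.57 for Maf, −0.48 for Adgre1 and −0.26 for Spi1, whose call was lost after median-ratio rescaling (−0.16) and without untreated TC plate library 1 (−0.19). Cd14 and Marco fell with IL-4 in all 3 settings and fell less in gels than on plates, while Maf fell more in gels. Adgre1 rose more on plates, where its untreated mean was lowest at 378 TPM. The cause of these differences was not tested.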

How the results depend on the processing

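Of 1540 single-member values under an alternative, 1432 kept their direction and their side of the threshold, 71 lost and 14 gained a call, and 23 turned in direction. The cause was not tested. The count of members called between high and low collagen without IL-4 (4) was 1 at an adjusted p under 0.05 and with no filter, where 0.532% and 2.76% of all genes were called (8.02% before). It was 7 with all 12 libraries in the fit (11.5% of all genes) and with the GC content and length correction (9.93%). With single gel libraries left out it was 1 to 3 (1.17% to 6.08%). The count with IL-4 (5) was 3 at an adjusted p under 0.05 (4.73% of all genes, 21.1% before) and 3 to 5 with single gel libraries left out (6.02% to 22.6%). With the replicate number as a block, the count without IL-4 was 1 (4.94%). No pairing of the libraries by replicate number was visible. Over 15 pairs of conditions the deviations of same-numbered libraries correlated between −0.12 and 0.11, with 1 over 0.1. A pairing with a small effect could go unseen in this check.

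After median-ratio rescaling the direction turned for Spi1 with IL-4 on plates (0.0167), Maf in high against low collagen with IL-4 (−0.0611), Cd68 (0.0487) and Spi1 (0.0993) in gels against plates with IL-4, and Csf1r for the IL-4 response in gels against plates (0.0144). It also turned for the IL-4 response in high against low collagen for Adgre1 (−0.0832), Cd68 (−0.0298) and Cd163 (−0.0161). With the GC content and length correction it turned for Maf with IL-4 (−0.117) and for that response of Adgre1 (−0.0890) and Cd163 (−0.0658). With a pseudocount of 0.1 the IL-4 response of Cd163 in gels against plates was 0.00946. None of these values passed the test before the change except Cd68 and Spi1 in gels against plates with IL-4.

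With single libraries left out, Spi1 ranged from −0.110 to 0.0270 for IL-4 on plates, from −0.0114 to 0.0698 for collagen without IL-4 and from −0.143 to 0.0289 for collagen with IL-4. Maf ranged from −0.0750 to 0.0958 for collagen with IL-4, and Ly6c2 from −0.465 to 0.125 for IL-4 in low collagen and from −0.287 to 0.110 for collagen with IL-4. The IL-4 response in high against low collagen ranged from −0.0399 to 0.0563 for Adgre1 and from −0.0300 to 0.160 for Cd163. Depth is unknown, so no counting error can be given for the low values of Ly6c2 and Cd163.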
